A study of Mus musculus with 2 samples.

Results

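Fc receptor genes were examined in dendritic cells of mouse spleen. They were chosen by symbol from the gene list that both deposited count matrices share: Fcgr1, Fcgr2b, Fcgr3, Fcgr4, Fcer1g, Fcgrt and Fcrls, 7 of 31053 genes, all of them present in both matrices. The cells came from naive Il7r-cre; Rosa26-lsl-tdTomato mice of 7 to 9 weeks, kept under specific-pathogen-free conditions. CD11c-positive spleen cells were enriched on magnetic beads and sorted into a tdTomato-positive library, named L-cDC, and a tdTomato-negative library, named M-cDC, with 1 library per group. Both groups carry the same alleles. In this model Cre is driven from Il7r, a gene of lymphoid progenitors, and the reporter stays on in all progeny of a cell that once had Cre, so tdTomato records history and not present Il7r expression. A cell without tdTomato is one in which no recombination was seen. The number of mice behind each library, and whether both were sorted from the same animals, is not given in the sources used here. With 1 library per group there was no statistical test, and every interval below covers counting error only.

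Receptors for the Fc part of IgG let myeloid cells take up antibody-coated antigen. Fcgr1, Fcgr3 and Fcgr4 encode activating ligand-binding chains, which signal through the ITAM of the common gamma chain encoded by Fcer1g. Fcgr2b encodes the inhibitory receptor, whose ITIM recruits the phosphatase SHIP-1 (Inpp5d). Fcgrt encodes the heavy chain of the neonatal receptor, which pairs with beta-2 microglobulin (B2m) and protects and sorts IgG inside the cell. Fcrls encodes an Fc receptor-like protein with a scavenger receptor domain and is best known as a marker of mouse microglia. In dendritic cells the balance of activating and inhibitory receptors sets how immune complexes affect maturation and antigen presentation.

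The matrices held 4939 barcodes and 40170515 unique molecular identifiers (UMIs) for L-cDC, and 6674 barcodes and 52973960 UMIs for M-cDC. After filtering, 3943 and 5600 cells remained with medians of 8573 and 7663 UMIs, and 4 barcodes among them occurred in both libraries. The cells fell into 22 clusters, which are called here by their leading genes, and by a cell class only where fixed markers allowed it. The label of conventional dendritic cell held for most clusters and not for all. H2-Ab1, Flt3, Zbtb46 and Itgax were found together in the cDC1-like and cDC2-like clusters. In L-cDC 200 cells were NK-like (Gzmc+ Ncr1+), with H2-Ab1 at 483, Flt3 at 12.3, Zbtb46 at 8.34 and Itgax at 125 CPM. Another 53 were B-like (Cd79a+), with H2-Ab1 at 2163, Flt3 at 53.2, Zbtb46 at 17.7 and Itgax at 5.07 CPM. Low Itgax was not particular to B-like cells: the Itgb8+ Aldh1a2+ and Txndc17+ Aldh1a2+ mature clusters of L-cDC had 12.15 and 6.42 CPM. M-cDC held 1 NK-like cell and no B-like cell. A mature, Ccr7+ cluster led by Clu and Nrp2 had 355 cells of L-cDC and 1 of M-cDC. Levels are given as CPM, the usual scaling of the UMIs of a gene by all UMIs of the same cluster and library, with exact 95% Poisson intervals, and in a pair of values the first is L-cDC.

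The Fcgr genes of chromosome 1 lie together. In GRCm38, with GENCODE annotation, Fcgr2b occupies chr1:170958617-170976547 on the minus strand, Fcgr4 chr1:171018920-171029761 on the plus strand and Fcgr3 chr1:171051174-171064935 on the minus strand, a span of 106.3 kb. Fcer1g lies at chr1:171229572-171234365 on the minus strand. Fcrls is at chr3:87250758-87263738, Fcgr1 at chr3:96282909-96293969 and Fcgrt at chr7:45092990-45103851, all on the minus strand. All 7 are annotated as protein coding. Fcgr2b and Fcgr3 are near copies in part of their coding sequence: 18.1% of the 30-base stretches of the longest Fcgr3 transcript also occur in Fcgr2b. A read that lies wholly within shared sequence could not be told apart. The longest identical run is 129 coding bases. It is shown here as an example of sequence in which a count cannot be assigned to one of the genes, and shared stretches also occur outside it.
Fcgr2b and Fcgr3, shared run: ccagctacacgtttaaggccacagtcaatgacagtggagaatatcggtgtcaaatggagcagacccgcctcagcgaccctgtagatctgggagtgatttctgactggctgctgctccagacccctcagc
This run ends 906 bases before the 3′ end of the Fcgr3 transcript and 3014 bases before that of Fcgr2b, and no 30-base stretch within the last 500 bases of either was shared with the other. A 3′ library reads mostly from that end, so the counts of the 2 genes were compared below.

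The stretch before the start was read for the 3 activating receptors that were rarely detected, because they hold the same letters there. The windows are the 250 bases before the RefSeq start in GRCm38.p6, 5′ to 3′ on the strand of the gene, at chr3:96293970-96294219 for Fcgr1, chr1:171059404-171059653 for Fcgr3 and chr1:171018676-171018925 for Fcgr4. The Fcgr3 window lies within the GENCODE span of the gene given above and not upstream of it, and 27 of its bases are in Fcgr3 exons. Of the Fcgr4 window, 6 bases are in exons of Fcgr4. Capitals mark GAGGAAG on either strand, the core letters of sites for PU.1, a transcription factor of myeloid cells, and in Fcgr1 also TTCNNNGAA, the letters of a STAT site of the interferon-gamma pathway.
Fcgr1: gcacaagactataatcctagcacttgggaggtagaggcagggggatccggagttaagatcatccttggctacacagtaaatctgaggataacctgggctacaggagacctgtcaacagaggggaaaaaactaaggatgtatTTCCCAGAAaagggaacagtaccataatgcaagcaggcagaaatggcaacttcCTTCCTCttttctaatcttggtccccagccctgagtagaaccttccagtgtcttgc
Fcgr3: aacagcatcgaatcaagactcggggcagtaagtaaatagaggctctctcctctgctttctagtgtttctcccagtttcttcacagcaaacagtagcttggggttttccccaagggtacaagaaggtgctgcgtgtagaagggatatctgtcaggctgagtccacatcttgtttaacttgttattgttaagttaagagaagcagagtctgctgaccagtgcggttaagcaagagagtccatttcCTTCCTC
Fcgr4: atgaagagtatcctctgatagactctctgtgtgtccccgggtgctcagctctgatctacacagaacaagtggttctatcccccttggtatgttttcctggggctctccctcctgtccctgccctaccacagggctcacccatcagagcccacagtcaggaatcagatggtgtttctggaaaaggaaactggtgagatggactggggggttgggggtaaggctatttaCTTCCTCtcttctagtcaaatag
GAGGAAG was found in the windows of 4 of the 7 genes, these 3 and Fcrls, and in 10.61% of 32851 windows of the same length. The shorter AGGAAG, which lies within it, was found in 5 of 7, with Fcer1g added, and in 29.48% of windows. TTCNNNGAA was found in Fcgr1 alone among the 7 and in 7.02% of windows. The motifs were chosen after the sequences had been read, and a match describes letters only.

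Fcer1g, the signalling chain, was the member found in the most cells, 2248 of 3943 for L-cDC against 3237 of 5600 for M-cDC, and its level separated the clusters. Among dendritic cells it was highest in the Cd209d+ Siglech+ cluster, which carried markers of both plasmacytoid cells and cDC2 and was left without a class, with 1343 CPM (1300 to 1388) for L-cDC against 1547 CPM (1496 to 1599) for M-cDC. NK-like cells of L-cDC reached 1576 CPM (1522 to 1632). The Mgl2+ Lyz2+ cluster of cDC2-like cells had 1146 CPM for L-cDC against 1371 CPM for M-cDC, and the Ffar2+ Ltb+ cDC2-like cluster had 945.0 CPM and 1114 CPM. Among cycling cells it was 661 and 810 CPM in the Xcr1- cluster and 258 and 229 CPM in the Xcr1+ cluster. The cDC1-like clusters were far lower, at 54.0 and 72.5 CPM in the Xcr1+ Clec9a+ cluster and 141 and 196 CPM in the Ifi205+ Ccr2+ cluster.

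**Figure D1:**
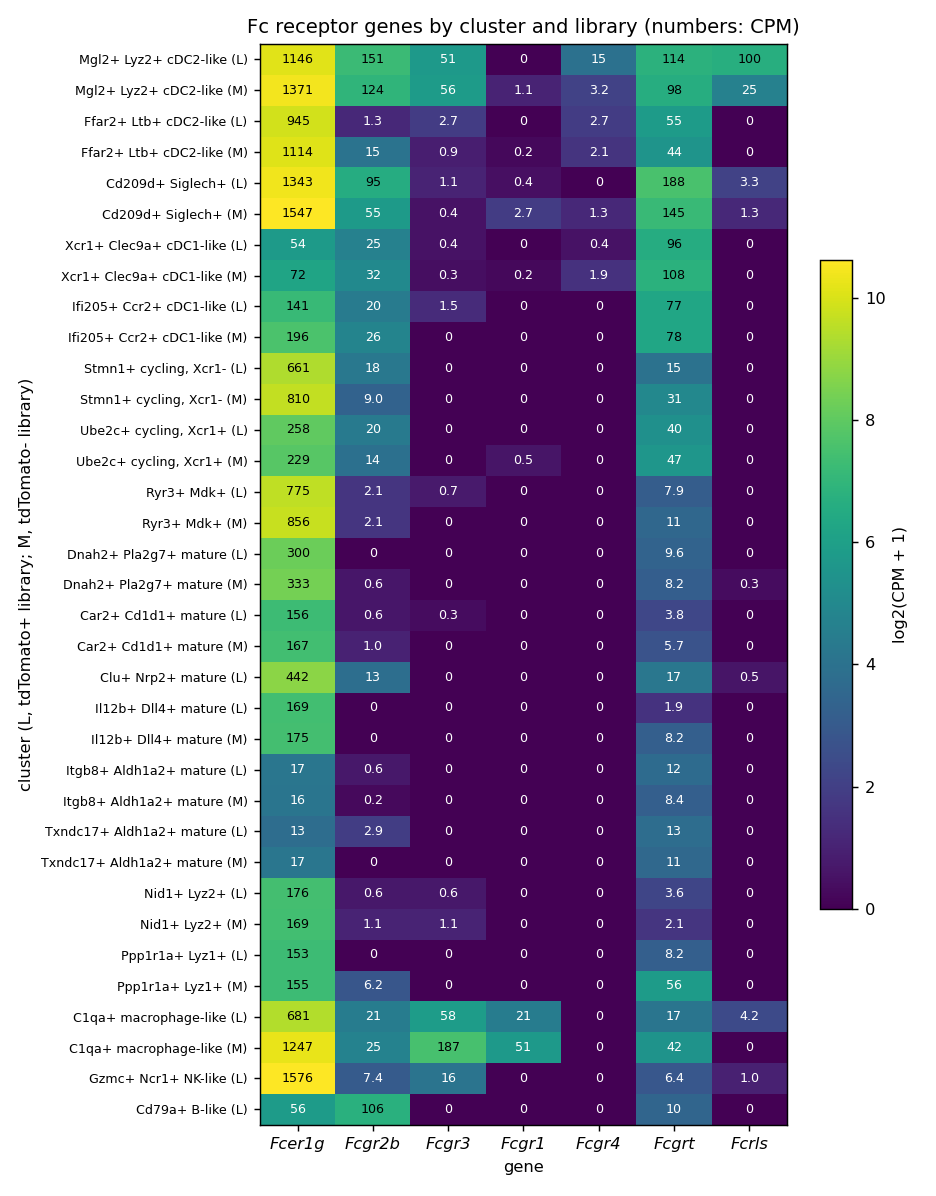
Level of the 7 Fc receptor genes (columns) in each cluster and library with at least 20 cells (rows; L, tdTomato-positive library; M, tdTomato-negative library); the number in a box is the CPM and the colour is log2(CPM + 1). Fcer1g is broad, Fcrls stands out in the Mgl2+ Lyz2+ rows, Fcgr3 in the C1qa+ and Mgl2+ Lyz2+ rows, and Fcgr1 in the C1qa+ rows.

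Mature Ccr7+ clusters differed from each other in Fcer1g over more than an order of magnitude. The gene stood at 442 CPM (422 to 464) in the Clu+ Nrp2+ cluster of L-cDC, at 300 and 333 CPM in the Dnah2+ Pla2g7+ cluster of L-cDC and M-cDC, at 156 and 167 CPM in the Car2+ Cd1d1+ cluster, and at 169 and 175 CPM in the Il12b+ Dll4+ cluster. It was 17.2 and 16.5 CPM in the Itgb8+ Aldh1a2+ cluster and 12.8 and 16.8 CPM in the Txndc17+ Aldh1a2+ cluster. For the clusters other than Clu+ Nrp2+, both libraries gave the same order apart from the last 2, whose intervals overlap. The intervals of the Car2+ and Il12b+ clusters also overlapped in each library. B-like cells had 55.7 CPM and a UMI in 11 of 53 cells (20.8%, median depth 6240 UMIs), or 15.4% of cells once thinned to 3000 UMIs each. The B-like cluster also held the dendritic transcripts Fscn1 at 623 CPM, Ccr7 at 258 CPM and Aldh1a2 at 177 CPM, so its share is no clean background. In the Itgb8+ Aldh1a2+ cluster, at median depths of 10683 and 8829 UMIs, the shares were 14.1% and 10.6%, or 4.90% and 4.58% when thinned. In the Txndc17+ Aldh1a2+ cluster, at median depths of 4991 and 5216 UMIs, 17 of 276 and 33 of 425 cells had a UMI. With no clean background among these clusters, a higher share in another cluster does not by itself show expression. In Xcr1+ Clec9a+ cells, at median depths of 15798 and 13707 UMIs, the shares were 43.1% and 48.4%, or 14.6% and 18.2% when thinned. The thinned share of L-cDC was below the 15.4% of B-like cells. In the Mgl2+ Lyz2+ cluster, at 12650 and 9769 UMIs, they were 98.1% and 97.9%, or 86.8% and 93.5% when thinned.

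**Figure D2:**
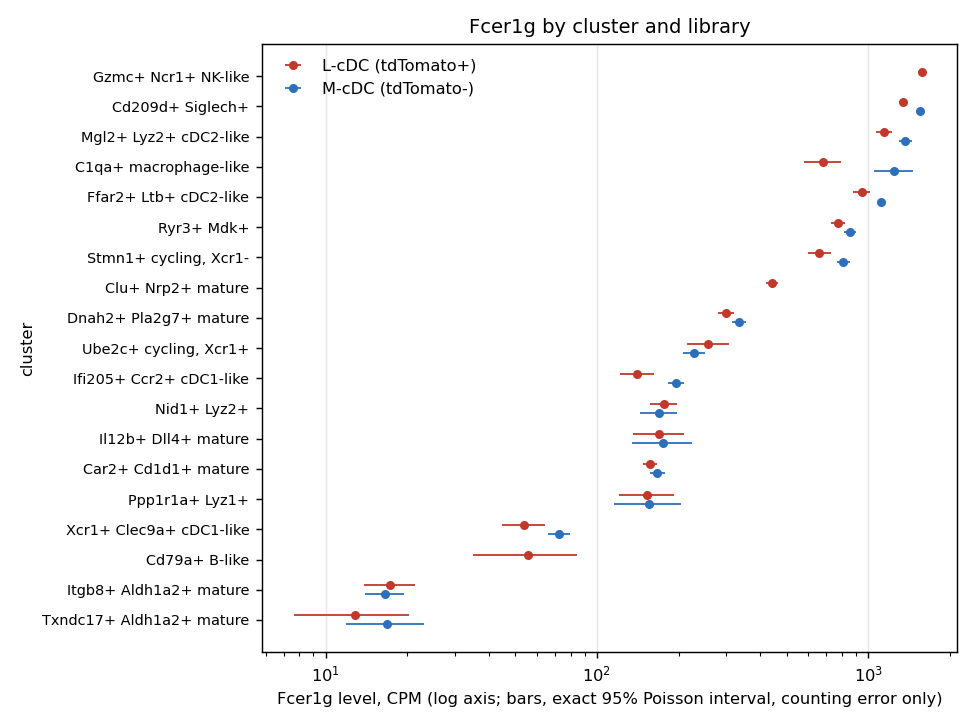
Fcer1g level (CPM, log axis) by cluster, with clusters ordered by their higher value; red points are L-cDC, blue points M-cDC, and bars are exact 95% Poisson intervals. The Cd209d+ and Mgl2+ clusters lie above 1000 CPM and the Aldh1a2+ clusters below 20 CPM in both libraries.

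Between the libraries Fcer1g was lower in L-cDC in 12 of the 15 clusters with at least 30 cells in each. The same or a higher number was reached by 15.02% of the 3183 genes with at least 10 UMIs in every such cluster, so this direction is not particular to Fcer1g. The sizes were small: L-cDC divided by M-cDC gave 0.868 (95% interval 0.829 to 0.910) in the Cd209d+ cluster, 0.849 (0.784 to 0.918) in the Ffar2+ cluster, 0.836 (0.764 to 0.915) in the Mgl2+ cluster and 0.816 (0.728 to 0.912) in the Xcr1- cycling cells. Macrophage-like cells had 681 CPM in 52 cells of L-cDC and 1247 CPM in 25 cells of M-cDC, with median depths of 3096 and 2852 UMIs. The markers of this cluster also differed: C1qa was at 860.0 and 3468 CPM, Lyz2 at 9847 and 26967 CPM, Ccr7 at 478 and 59.4 CPM and Fscn1 at 1176 and 170 CPM, and their part in the difference was not tested.

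Fcgr2b, the inhibitory receptor, was highest in the Mgl2+ Lyz2+ cluster. It had 151 CPM (124 to 183) for L-cDC against 124 CPM (102 to 148) for M-cDC, with a UMI in 39 of 53 and 51 of 95 cells. The Cd209d+ Siglech+ cluster came next among dendritic cells, with 95.2 CPM (83.9 to 108) and 54.5 CPM (45.3 to 65.1). The B-like cells of L-cDC, a cell type in which Fcgr2b is the only IgG receptor, had 106 CPM (76.7 to 144). The cDC1-like clusters ran from 20.4 to 31.7 CPM. The Ffar2+ Ltb+ cluster, although cDC2-like, held only 1 UMI in 90 cells of L-cDC and 89 UMIs in 813 cells of M-cDC (15.3 CPM). Mature clusters were at or below 2.85 CPM, except the Clu+ Nrp2+ cluster, where 36 of 355 cells had a UMI (13.2 CPM, 9.86 to 17.4). NK-like cells, which should lack the gene, had a UMI in 12 of 200 cells (6.0%, median depth 8169 UMIs), or 2.0% when thinned. Thinned shares were 39.6% and 24.7% in the Mgl2+ cluster, 17.4% and 10.8% in the Cd209d+ cluster, 3.69% and 8.96% in all cDC1-like cells, and 4.35% in the Clu+ Nrp2+ cluster.

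Fcgr3, the activating receptor that shares coding sequence with Fcgr2b, was found in fewer clusters. Macrophage-like cells came first, with 58.2 CPM (31.8 to 97.6) and 187 CPM (117 to 282), and in L-cDC their interval overlapped that of the Mgl2+ cluster. Of 94 UMIs in L-cDC, 35 were in the Mgl2+ Lyz2+ cluster, 33 in NK-like cells and 14 in macrophage-like cells. Of 83 UMIs in M-cDC, 52 were in the Mgl2+ cluster and 22 in macrophage-like cells. The Mgl2+ cluster came next, at 50.9 CPM (35.5 to 70.8) for L-cDC against 55.9 CPM (41.8 to 73.3) for M-cDC, with a UMI in 14 of 53 and 30 of 95 cells. In the Cd209d+ cluster, where Fcgr2b was also high, 1 of 209 and 1 of 214 cells had a UMI of Fcgr3. None of the 53 B-like cells had a UMI, which allows up to 5.66% of cells with one at their depth and sets no limit on cells that express the gene.

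The share of Fcgr3 in the summed UMIs of Fcgr2b and Fcgr3 differed widely between clusters. It was 25.2% (exact Clopper-Pearson 95% interval 18.2 to 33.2) in the Mgl2+ cluster of L-cDC and 31.1% (24.2 to 38.8) in that of M-cDC. In the Cd209d+ cluster it was 1.15% (0.239 to 3.34) and 0.813% (0.0206 to 4.45), and in the Xcr1+ Clec9a+ cDC1-like cluster 1.79% and 0.971%. In macrophage-like cells it was 73.7% (48.8 to 90.8) and 88.0% (68.8 to 97.5), and in NK-like cells of L-cDC 68.8% (53.8 to 81.3). In each of these clusters found in both libraries, the intervals of the 2 libraries overlapped. Over the 12 alternatives that kept a Mgl2+ cluster its share ran from 22.8% to 31.7% in L-cDC and from 22.2% to 31.1% in M-cDC. At Leiden resolution 0.5 there was no such cluster: all 148 of its cells lay in a cluster of 1213. The cells of the Mgl2+ cluster also varied between the alternatives that kept it. With doublet-like cells kept it held 351 cells. Some cells held UMIs of both receptors: all 14 cells of the Mgl2+ cluster of L-cDC with a UMI of Fcgr3 also had one of Fcgr2b, as did 21 of the 30 in M-cDC, against 39 of 53 and 51 of 95 of all cells of the cluster. At 3000 UMIs per cell it was 3 of 5 and 4 of 11, against 21 of 53 and 23 of 93 of all cells.

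Fcgr1 and Fcgr4 were close to the limit of detection. Fcgr1, the high-affinity receptor, had 6 UMIs in 5 cells of L-cDC and 16 UMIs in 15 cells of M-cDC. Macrophage-like cells held 5 of the 6 and 6 of the 16, which gave 20.8 and 50.9 CPM there, and the Cd209d+ cluster of M-cDC held another 6. Fcgr4, a receptor of monocytes and neutrophils, had 13 UMIs in 5 cells of L-cDC, 10 of them in 2 Mgl2+ cells, and 30 UMIs in 27 cells of M-cDC, of which 12 were in the Ffar2+ cluster and 12 in the Xcr1+ Clec9a+ cluster. In the Mgl2+ cluster Fcgr4 had 10 UMIs against 3 (ratio 4.51, 1.16 to 25.5), with 7 of the 10 in a single cell. Fcgr1 was too sparse in every dendritic cell cluster to compare the libraries.

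Fcgrt, the neonatal receptor, was highest in immature clusters and low in the mature ones. The Cd209d+ cluster was highest, with 188 CPM (172 to 205) for L-cDC against 145 CPM (130 to 162) for M-cDC. The Mgl2+ cluster followed with 113 and 97.8 CPM and the Xcr1+ Clec9a+ cluster with 95.5 and 108 CPM, and the intervals of these 2 clusters overlapped in each library. The Ifi205+ Ccr2+ cluster had 76.5 and 77.7 CPM and the Ffar2+ cluster 55.3 and 43.7 CPM. In Xcr1- cycling cells it had 9 and 54 UMIs, 14.9 and 30.5 CPM (ratio 0.489, 0.212 to 0.998). Mature cells as a whole had 9.65 CPM for L-cDC against 7.86 CPM for M-cDC. Its partner B2m went the other way, with 4396 and 4376 CPM in the Car2+ Cd1d1+ mature cluster against 2266 and 2089 CPM in the Cd209d+ cluster and 1555 and 1635 CPM in the Xcr1+ Clec9a+ cluster.

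Fcrls was almost confined to the Mgl2+ Lyz2+ cluster, which held 69 of its 83 UMIs for L-cDC against 23 of its 27 for M-cDC; the Cd209d+ cluster held 9 and 3. Within the Mgl2+ cluster 20 of 53 cells of L-cDC had a UMI of Fcrls, and 7 cells had 5 to 8. In M-cDC 5 of 95 cells had one, and a single cell held 15 of the 23 UMIs. The levels were 100 CPM (78.1 to 127) and 24.7 CPM (15.68 to 37.1), a ratio of 4.06 (2.50 to 6.82). Without the cell with most UMIs in each library the ratio was 10.3, and it was above 1 in each of the 12 alternatives that kept a Mgl2+ cluster (3.98 to 13.8). After thinning to 3000 UMIs the clusters' ratio was 5.56. The cells of the Mgl2+ cluster varied between the alternatives. The 13.8 came with each library clustered alone, where 30 cells of L-cDC were set against 214 of M-cDC. The macrophage-like cluster held 1 UMI of Fcrls in 52 cells of L-cDC and none in 25 of M-cDC. Summed over 10 fixed macrophage markers the Mgl2+ cluster had 58.2 CPM for L-cDC against 181 CPM for M-cDC, with 3 of 10 at 0 in each (Slc40a1 and Cd5l in both, with Spic in the first and Mertk in the second), and over 10 monocyte markers 5687 and 8094 CPM with Ly6c2 and Chil3 at 0 in both. Most of the monocyte sum was Lyz2, a gene that names the cluster, at 4676 and 7125 CPM. Other lists were higher in L-cDC: 12 plasmacytoid markers summed to 506 and 281 CPM, with 2 and 5 at 0, and 14 markers of mature cells to 1756 and 1013 CPM, with none and 1 at 0. Cd209d was at 352 and 75.3 CPM. The part of these markers in the difference was not tested.

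**Figure D3:**
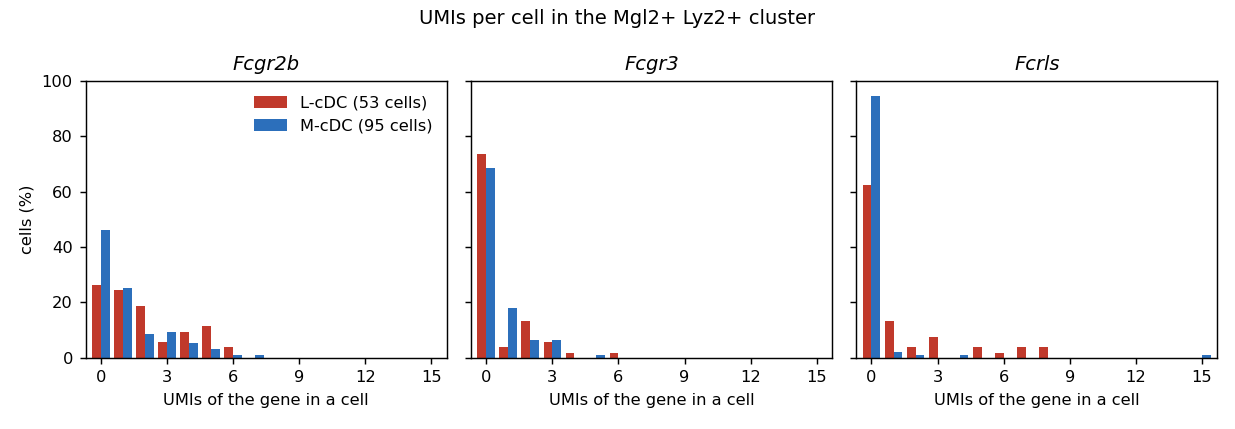
Share of cells of the Mgl2+ Lyz2+ cluster (percent, vertical axis) by the number of UMIs of Fcgr2b, Fcgr3 and Fcrls in the cell (horizontal axis); red bars are the 53 cells of L-cDC and blue bars the 95 of M-cDC. For Fcrls 90 of 95 cells of M-cDC are at 0 and 1 is at 15, while 20 of 53 cells of L-cDC are above 0.

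The study set L-cDC against M-cDC within cDC1 and cDC2. A gene was considered where it reached 20 CPM in one of the libraries and 50 UMIs in their sum, and a 1.5-fold difference was used to describe size. In cDC1-like cells 0 of the 3 members considered passed 1.5-fold, against 0.947% of the 4753 genes considered. Fcer1g was 86.9 CPM for L-cDC against 122 CPM for M-cDC (ratio 0.710, 0.626 to 0.803), Fcgr2b 23.0 and 29.5 CPM (0.778, 0.604 to 0.994), and Fcgrt 88.3 and 95.6 CPM (0.924, 0.812 to 1.05). Fcer1g was lower in L-cDC in both cDC1-like clusters, at 0.745 (0.605 to 0.912) in Xcr1+ Clec9a+ and 0.717 (0.610 to 0.839) in Ifi205+ Ccr2+ cells.

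In cDC2-like cells 4 of the 5 members considered were past 1.5-fold, all higher in L-cDC, against 10.4% of the 5352 genes considered. Fcgr2b was 73.5 CPM for L-cDC against 30.3 CPM for M-cDC (ratio 2.43, 1.90 to 3.08), Fcgr3 25.9 and 8.46 CPM (3.06, 1.97 to 4.71), Fcgrt 83.3 and 51.2 CPM (1.63, 1.31 to 2.01) and Fcrls 48.3 and 3.41 CPM (14.1, 8.71 to 23.8). Fcer1g was 1042 and 1149 CPM (0.907, 0.857 to 0.959). The class was made up differently in the 2 libraries: 53 of 143 cells of L-cDC belonged to the Mgl2+ cluster, against 95 of 908 of M-cDC. Within the Mgl2+ cluster only Fcrls of 5 members passed 1.5-fold, against 14.7% of 3579 genes, and Fcgr2b stood at 1.22 (0.929 to 1.61), Fcgr3 at 0.911 (0.576 to 1.43) and Fcgrt at 1.16 (0.846 to 1.59). Within the Ffar2+ cluster 0 of 2 did, against 9.34%. Fcgr2b was below 20 CPM there and so not among these 2. It stood at 1.35 CPM for L-cDC, from 1 UMI, against 15.3 CPM for M-cDC. Its ratio was 0.088 (0.0022 to 0.503), opposite in direction to that of the whole class. With both clusters given equal weight the log2 ratio of Fcgr2b moved from 1.28 to 0.13, that of Fcgr3 from 1.61 to -0.09, that of Fcgrt from 0.70 to 0.25 and that of Fcrls from 3.82 to 2.01. With each library clustered alone, Fcgr2b, Fcgr3 and Fcgrt turned lower in L-cDC in this class (-1.33, -2.02 and -0.55). Fcrls was then at 0 CPM in cDC2-like cells of L-cDC and at 155.6 CPM in its Mgl2+ cluster of 30 cells. That cluster was thus outside the class in this setting, and the libraries were compared over unlike sets of cells. Over the 12 alternatives that kept a Mgl2+ cluster its ratio of Fcgr2b ran from 1.201 to 2.52 (the latter at 1000 genes per cell) and that of Fcgr3 from 0.835 to 2.85 (the latter with each library clustered alone), above 1 in 7 of them. The level of Fcgr3 in the Mgl2+ cluster ran from 37.3 to 76.6 CPM for L-cDC against 14.2 to 78.2 CPM for M-cDC. These ranges cover unlike sets of cells. At 1000 genes per cell the cluster held 288 cells, with 106 of the original 148. With each library clustered alone, 30 cells of L-cDC were set against 214 of M-cDC.

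**Figure D4:**
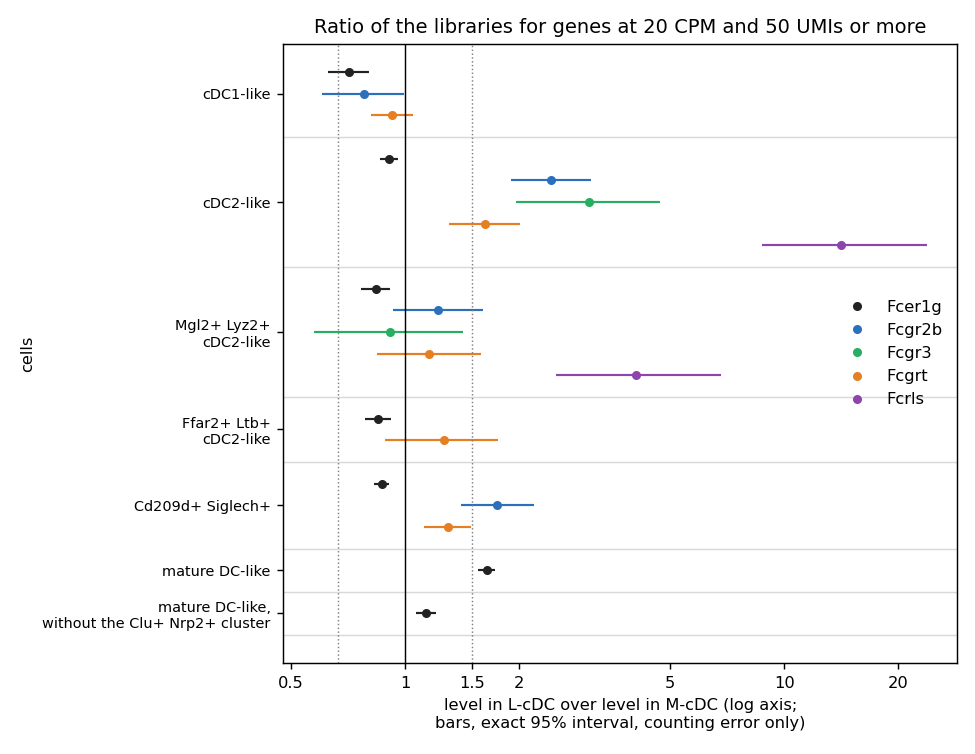
Level in L-cDC over level in M-cDC (horizontal log axis) for each member considered in a class or cluster (rows); bars are exact 95% intervals for counting error, the solid line is no difference and the dotted lines 1.5-fold. In cDC2-like cells 4 members lie right of the upper dotted line, and Fcrls alone does so in the Mgl2+ Lyz2+ cluster.

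In the Cd209d+ Siglech+ cluster, with 209 and 214 cells, 1 of 3 members considered was past 1.5-fold, against 11.7% of 5300 genes. This was Fcgr2b, higher in L-cDC (1.75, 1.40 to 2.18), with a UMI in 85 of 209 and 61 of 214 cells; it ran from 1.204 to 2.499 over 13 alternatives. Fcgrt stood at 1.30 (1.12 to 1.49) and Fcer1g at 0.868. The ratio of Fcgrt was above 1 in 9 of 13 alternatives and fell to 0.910 at Leiden resolution 2.0. In cells that were in this cluster also with the members among the variable genes, Fcgrt was at 196 and 197 CPM. Fcgr2b was at 95.95 and 67.06 CPM in these cells, short of 1.5-fold. The 12 plasmacytoid markers summed to 2292 CPM for L-cDC against 1288 CPM for M-cDC in this cluster, with none and 1 (Klk1) at 0, and their part in the difference was not tested.

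In mature cells the 1 member considered, Fcer1g, was past 1.5-fold (186 CPM in L-cDC, 114 CPM in M-cDC, ratio 1.64, 1.56 to 1.73), against 1.79% of the 4366 genes considered. Without the Clu+ Nrp2+ cluster, which came almost wholly from L-cDC, it was 129 and 114 CPM (1.14, 1.07 to 1.204) and not past 1.5-fold, against 0.579% of 4315 genes. Of 62 UMIs of Fcgr2b in mature cells of L-cDC, 51 were also in it.

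Partner and signalling genes of the receptors were compared in the same way. Of 57 genes in 7 lists 55 were in the files. In cDC1-like cells 0 of 31 considered passed 1.5-fold (median log2 ratio -0.03, against -0.08 for all genes considered), in mature cells 0 of 22 (-0.04 against -0.03) and in cDC2-like cells 4 of 34 (-0.11 against -0.08), near the background of 10.4%. The 4 were Prkcd, a kinase of ITAM signalling, 225 and 133 CPM (ratio 1.69), Dok2, an adaptor of inhibitory signalling, 25.2 and 4.01 CPM (6.29), and, lower in L-cDC, the GTPase gene Rac2 at 174 and 262 CPM (0.663) and Ncf4, an oxidase subunit, at 82.6 and 130 CPM (0.637). In the Mgl2+ cluster 10 of 34 passed, 5 in each direction (median log2 ratio -0.18, against -0.04 for all genes considered there, of which 14.7% passed). Clec4n, which encodes dectin-2, a receptor that pairs with the gamma chain, was at 7.27 CPM for L-cDC against 63.4 CPM for M-cDC (0.115, 0.0359 to 0.283), Dok2 at 52.4 and 22.6 CPM (2.32, 1.32 to 4.18) and Dok1 at 71.3 and 41.9 CPM (1.70, 1.09 to 2.66). In the Cd209d+ cluster 2 of 33 were higher and 5 lower in L-cDC (median -0.15, against -0.08 for all genes, of which 11.7% passed). Lat2, a linker in ITAM signalling, was at 31.1 and 71.5 CPM (0.435), and Fcrla, an intracellular Fc receptor-like protein, at 22.2 and 6.71 CPM (3.32, 1.86 to 6.29).

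The other common ITAM adaptor, Tyrobp, departed from Fcer1g in the Clu+ Nrp2+ cluster among the mature clusters compared here. Tyrobp was at 552 CPM in the Clu+ Nrp2+ cluster of L-cDC, where Fcer1g was highest, against 1290 and 1225 CPM in the Car2+ Cd1d1+ cluster and 1363 and 1306 CPM in the Dnah2+ Pla2g7+ cluster. Over the Dnah2+, Car2+ and Itgb8+ clusters Tyrobp fell in the same order as Fcer1g in both libraries. Both adaptors were low in the Itgb8+ Aldh1a2+ cluster, where Tyrobp had 116 and 105 CPM. Syk, the kinase that both recruit, was at 13.5 and 14.05 CPM there and at 104 and 122 CPM in the Dnah2+ Pla2g7+ cluster.

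Likeness of pattern was measured over 36 sums of a cluster and library with at least 30 cells, as Pearson's r of log2(CPM + 10) among 6037 genes. The genes most like Fcer1g were Ctsa (r = 0.925), S100a4 (0.874) and S100a6 (0.859). Fcgr2b came with Trf (0.832), Cdk9 (0.800) and Nucb2 (0.792), and Fcgr3 with C3 (0.945), Hpgd (0.920) and Timp2 (0.893). Fcgrt was nearest to Cbr3 (0.921), Tifab (0.887) and Tifa (0.879), and Fcgr1 to C1qc (0.9497), Fam213b (0.921) and C1qb (0.910). Fcrls was nearest to Mrc1 (0.934), Hr (0.902) and Fn1 (0.901), and Fcgr4 to Fcrls itself (0.899), Retnla (0.872) and Hr (0.838). Among the members, Fcgr2b and Fcgrt had r = 0.735, Fcgr3 and Fcrls 0.782, and Fcgr2b and Fcer1g 0.382. The sums share libraries and depth, and for Fcgr1, Fcgr4 and Fcrls the values rest on 1 or 2 clusters. Those of Fcgr3 rest on the Mgl2+, macrophage-like and NK-like clusters.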

How the data were processed

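Both libraries were made with the Chromium Next GEM 3′ v3.1 kit and sequenced on an MGI instrument, per the labels' protocols. The authors used Cell Ranger 6.1.2, per the file headers, and the mouse build GRCm38 (mm10), per the submitters' processing notes. What they deposited are unnormalised UMI counts for each gene in each called barcode. The gene lists name 31053 genes. No column of another sample was present.

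Cells were kept from 500 detected genes upward if mitochondrial genes gave at most 10% of their UMIs. Scrublet was run per library at an expected rate of 0.08, and its lower automatic threshold (0.258, against 0.547) was applied to both, which removed 143 and 248 cells. Both libraries were scaled to 10000 UMIs per cell and entered 1 Leiden clustering (resolution 1.0, 15 neighbours, 30 components of 2000 variable genes), with no batch integration. The members and immunoglobulin, T cell receptor, hemoglobin, mitochondrial, ribosomal and sex-linked genes could not be variable genes. Names came from the best-scoring marker list of each cluster, where its scaled score reached 0.55 and at least 3 of its markers reached 10 CPM. A cluster stayed unnamed where its top 10 genes held more markers of another list, or at least 2 of each list. It also stayed unnamed with very low depth and no marker of its list among those 10 genes. This rule was revised after the clusters had been seen.

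UMIs were summed per cluster and library. Ratios have exact conditional binomial 95% intervals, and cells were thinned to 3000 UMIs to compare shares. In other clusterings the Mgl2+ and Cd209d+ clusters were found by their level of Mgl2 and Siglech, and used where no other cluster held more of the original cells, a rule added after the values had been seen. The interval code was tested on simulated data. The members and gene lists were chosen with earlier results of these data known. Named are all members; from each list the genes with the largest ratios past 1.5-fold with an interval that leaves out 1; and the 3 genes most like each member, other than unnamed gene models. One gene that this rule names is not reported here. Gene positions came from GENCODE vM21 and promoter windows from RefSeq, where all 7 members matched. Protein sequences were not used here. Tools were Python 3.11.15, scanpy 1.11.5, numpy 2.4.6, scipy 1.17.1, pandas 2.3.3, matplotlib 3.10.9, igraph 0.11.9 and scikit-learn 1.9.0.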

Additional observations from a re-analysis of the deposited data

How the results depend on the processing

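In cDC1-like cells the count of members past 1.5-fold was 0, and 1 (Fcer1g) with doublet-like cells kept or each library clustered alone. In cDC2-like cells it was 4, and 1 with each library clustered alone or with both clusters weighted equally, and 2 with cells classed by marker means, thinned to 3000 UMIs or at a minimum of 50 CPM, and 3 at 5% mitochondrial UMIs or at 2-fold. Clustered alone, the log2 ratios in cDC2-like cells turned to -1.33 for Fcgr2b, -2.02 for Fcgr3 and -0.55 for Fcgrt. Fcrls was then at 0 CPM and Fcgr3 at 1.975 CPM in cDC2-like cells of L-cDC, which did not include its Mgl2+ cluster. Equal weights turned Fcgr3 to -0.093. Signalling genes past 1.5-fold in cDC2-like cells fell from 4 to 2 with doublet-like cells kept and to 1 at 2-fold. In mature cells the count was 1, and 0 at a naming score of 0.3, at 200 or 1000 genes per cell, at 5% mitochondrial UMIs, with doublet-like cells kept, at Leiden resolution 2.0, with the members among the variable genes, with each library clustered alone, after thinning, at 2-fold, and without the Clu+ Nrp2+ cluster. Equal weights, the score of 0.3 and the Clu+ Nrp2+ cluster were chosen after seeing the data. At Leiden resolution 0.5 the Mgl2+ cells formed no cluster of their own, so no value is given. Of 494 alternative values of levels, 162 moved beyond the counting interval. Fcer1g remained lower in L-cDC in 13 of 13 alternatives for cDC1-like cells and the Cd209d+ cluster and in 12 of 12 for the Mgl2+ cluster. Among these, the naming score of 0.3 left the cells of these groups as they were, so it could not differ. In cDC1-like cells thinned to 3000 UMIs the log2 ratio was -0.23, and its interval (-0.64 to 0.16) included no difference. No paired analysis was possible because each group has 1 library. Depth limits Fcgr1, with 6 and 16 UMIs in the libraries, and Fcgr4, with 13 and 30.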

Other observations

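The border between the Mgl2+ Lyz2+ and Cd209d+ Siglech+ clusters moved when the members were allowed among the variable genes: 7 cells of L-cDC and 40 of M-cDC then passed from the Cd209d+ to the Mgl2+ cluster. The cells that passed had no UMI of Fcgr3 in either library, and Fcgr2b at 154 CPM (76.7 to 275) for L-cDC against 57.9 CPM (37.8 to 84.9) for M-cDC. The 53 and 95 cells that were in the Mgl2+ cluster both times had 50.9 and 55.9 CPM of Fcgr3.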
